A study of Saccharomyces cerevisiae with 4 samples.

Results

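Yeast stores glucose as glycogen and as trehalose, and 10 genes of that metabolism were followed here through deletions of 4 sulfur regulators. They were taken by systematic name from the 6260 open reading frames (ORFs) of the deposited value table, and all 10 are listed there. They are TPS1 (YBR126C), TPS2 (YDR074W), TSL1 (YML100W), PGM2 (YMR105C), GSY1 (YFR015C), GSY2 (YLR258W), GLC3 (YEL011W), GAC1 (YOR178C), GPH1 (YPR160W) and GDB1 (YPR184W). The genes were chosen with results of these arrays already known, so their values are given as a description, with no test. RNA of Saccharomyces cerevisiae strains labelled as knockouts of MET28, MET31, MET32 or CBF1 was compared with wild-type RNA on 2-colour arrays, with 1 column of values per strain and no replicate columns. The second channel is labelled wt+met for the met28 and cbf1 knockouts and wt for the met31 and met32 knockouts. The labels give no strain background, and every strain was picked from plates holding YPD and G418, then grown in YNB at 30 °C to an optical density of 0.8 to 1.0 at harvest. Each value is read as a log ratio of deletion strain over wild type whose base is not given, and an exact 0 is treated as not measured.

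Glycogen is a branched glucose polymer, and trehalose is a disaccharide that also protects proteins and membranes. Both are made from glucose 6-phosphate, which phosphoglucomutase (PGM2) converts to glucose 1-phosphate on the way to UDP-glucose. Tps1 and Tps2 make trehalose in a complex in which Tsl1 is a regulatory subunit. The glycogen synthases Gsy1 and Gsy2 lengthen the chains and the branching enzyme Glc3 branches them. Gac1 guides the phosphatase Glc7 to glycogen synthase, and dephosphorylation activates the synthase. The phosphorylase Gph1 and the debranching enzyme Gdb1 take glycogen apart. In budding yeast many of these genes are raised together by the stress factors Msn2 and Msn4 and as glucose runs down, and synthesis and breakdown genes are often raised at the same time. Cbf1, Met28, Met31 and Met32 act with the activator Met4 on genes of sulfur metabolism.

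The direction of the ratio rests on the deleted genes themselves. MET28 was at -1.294 on the met28 array, MET31 at -0.320 on the met31 array and CBF1 at -0.995 on the cbf1 array, each among the 5 lowest measured values. On the met32 array its own deleted gene had a value of 0.012, so neither the deletion nor the direction could be checked there, and results from that array are also given with the sign turned. Between 5242 and 5893 ORFs were measured per array, and the robust SD of their values was between 0.0519 on met31 and 0.110 on cbf1. Of the 40 values of the 10 genes, 39 were measured, and the exception was GAC1 on cbf1, which is listed at 0. In RNA from whole cultures, fewer cells with a transcript and less transcript per cell cannot be told apart.

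The 10 genes were mostly high in the strain without CBF1 and mostly low in the strain without MET31. On the cbf1 array 8 of 9 measured genes were above 0, against 37.1% of all ORFs, and their median was 0.171 against -0.034 for all ORFs. The same 8 genes were above that array median. On the met31 array 8 of 10 were below 0, against 51.7% of all ORFs, with a median of -0.058 against -0.002. The met28 array had 8 of 10 above 0, against 50.7%, and a median of 0.0615 against 0.0015. On the array labelled met32 the count was 8 of 10 below 0, against 51.2%, but the median of -0.014 was close to the -0.002 of all ORFs (0.014 with the sign turned). TPS1, GSY1, GPH1 and GDB1 were in neither the highest nor the lowest 2.5% on any array. With 1 column per strain none of these differences has a replicate check. The met28 and cbf1 arrays carry another reference label (wt+met) than met31 and met32 (wt). Between those pairs, deletion and reference cannot be told apart. The source names met28 and cbf1 do not carry +met. They do not settle whether deletion strain and reference were alike in it on those arrays.

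**Figure D1:**
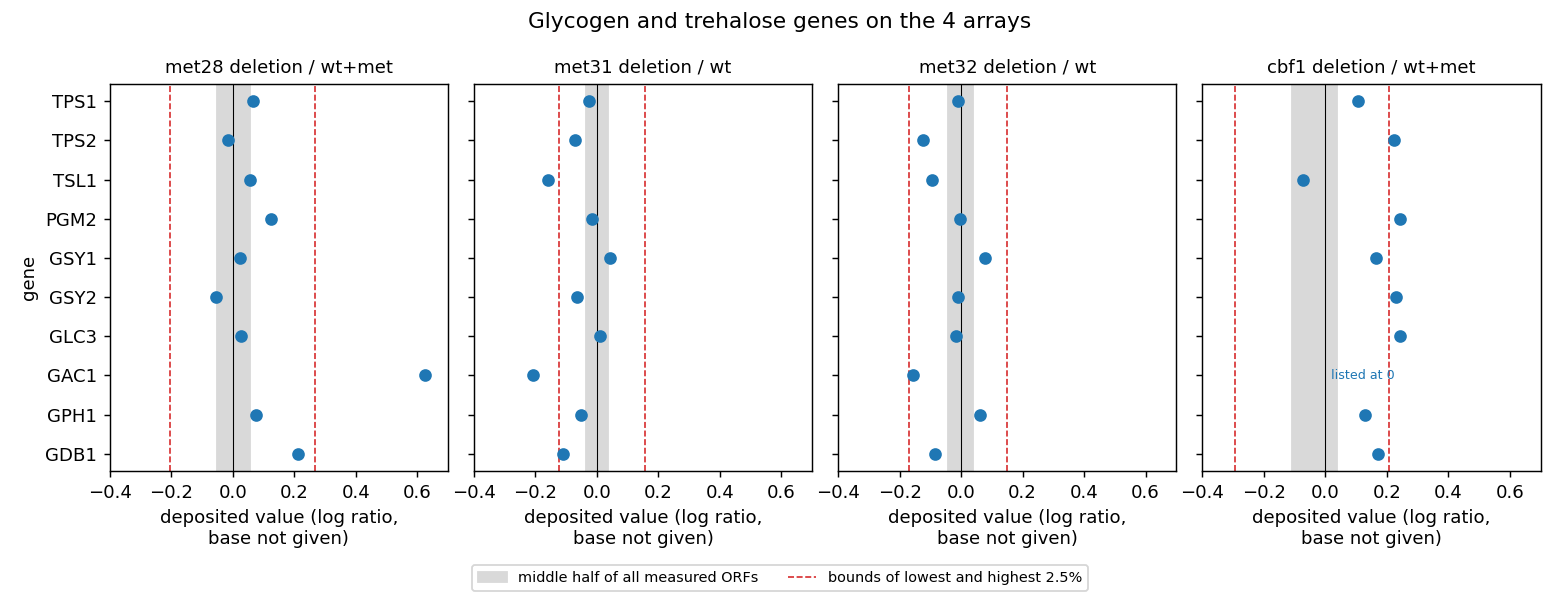
Deposited value of each of the 10 genes (rows) on each array (panels), with the interquartile range of all measured ORFs shaded and the bounds of the lowest and highest 2.5% dashed. On the cbf1 array 8 of 9 measured genes lie above 0 and 4 lie beyond the upper bound, GAC1 is at 0.624 on the met28 array, and TSL1 and GAC1 lie beyond the lower bound on the met31 array.

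In the strain without CBF1, all 3 genes of glycogen synthesis were high. The branching enzyme gene GLC3 was at 0.242 and the glycogen synthase gene GSY2 at 0.230, both in the highest 2.5%, and its paralog GSY1 was at 0.164. The phosphoglucomutase gene PGM2 was at 0.243, the highest of the 9 measured members and rank 83 from the top among 5383 ORFs. In all, 4 genes were in the highest 2.5%, where 2.49% of ORFs lie by construction, and 0 were in the lowest 2.5% (2.51% of ORFs). The 4 values were close together, between 0.224 (TPS2) and 0.243 (PGM2), and the bound was 0.209. The first gene outside it was GDB1, at 0.171.

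The trehalose genes did not lie together on the cbf1 array. TPS2, which encodes trehalose 6-phosphate phosphatase, was at 0.224 and TPS1, which encodes the synthase, at 0.106, at percentiles 97.9 and 89.2 of the array. TSL1, the gene of the regulatory subunit, was at -0.072, at percentile 36.2, and was the only measured member below 0 there. The genes of glycogen breakdown were on the same side as those of synthesis, with GPH1 at 0.130 and GDB1 at 0.171. Read as log10 ratios, PGM2 would be 1.75-fold and TPS1 1.28-fold above the wild-type channel. Read as log2 ratios, the same values would be 1.18-fold and 1.08-fold.

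The strain without MET28 shared the reference label wt+met but had another order of genes. GAC1 was at 0.624, rank 23 from the top of 5242 measured ORFs, and was the only member in the highest 2.5% (2.5% of ORFs, bound 0.269), with 0 in the lowest 2.5% (2.54% of ORFs). Next came the debranching enzyme gene GDB1 at 0.212, PGM2 at 0.124, the phosphorylase gene GPH1 at 0.076, TPS1 at 0.066 and TSL1 at 0.057. The genes of glycogen synthesis were near 0, with GLC3 at 0.026, GSY1 at 0.024 and GSY2 at -0.053, and so was TPS2, at -0.016. Without GAC1 the median was 0.057, and the other 9 genes lay between -0.053 and 0.212, where the robust SD of all ORFs was 0.0778.

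In the strain without MET31 the regulatory genes of both branches were lowest. GAC1 was at -0.207 and TSL1 at -0.160, the 2 members in the lowest 2.5% (2.55% of ORFs, bound -0.122), and 0 were in the highest 2.5% (2.51% of ORFs). GDB1 was at -0.110, just outside it, at percentile 3.44. TPS2 was at -0.071, GSY2 at -0.065, GPH1 at -0.051, TPS1 at -0.025 and PGM2 at -0.016. GSY1, at 0.041, and GLC3, at 0.009, were above 0. All 3 trehalose genes and both breakdown genes were therefore below 0, and of the 3 glycogen synthesis genes only GSY2 was. Read as log10 ratios, GAC1 would be 1.61-fold and TSL1 1.45-fold below the wild-type channel, and read as log2 ratios 1.15-fold and 1.12-fold.

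On the array labelled met32 no member was in the highest 2.5% (2.58% of ORFs) or in the lowest 2.5% (2.52% of ORFs). GAC1 was lowest at -0.156, against a bound of -0.168, followed by TPS2 at -0.125, TSL1 at -0.095 and GDB1 at -0.085. GLC3 at -0.017, GSY2 at -0.011, TPS1 at -0.010 and PGM2 at -0.005 were within 1 robust SD (0.0608) of 0. GPH1 at 0.061 and GSY1 at 0.078 were above 0. With the sign turned, GAC1 would be the highest of the 10 at 0.156 and GSY1 the lowest.

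The arrays that carry the same reference label were set side by side. On cbf1 minus met28, 7 of 9 genes measured on both had a difference above 0, against 38% of 5032 ORFs, and the median difference was 0.119 against -0.038. GSY2 differed most, at 0.230 on cbf1 and -0.053 on met28, followed by TPS2, at 0.224 on cbf1 and -0.016 on met28, and GLC3, at 0.242 on cbf1 and 0.026 on met28. The differences of these 3 genes, from 0.216 to 0.283, were at percentiles 95.9 to 98.4 of all differences. GDB1, at 0.171 on cbf1 and 0.212 on met28, and TSL1, at -0.072 on cbf1 and 0.057 on met28, were lower on cbf1. The robust SD of the difference over all ORFs was 0.126. On met31 minus met32, 8 of 10 differences were below 0, against 48.4% of 5528 ORFs, and their median was -0.031 (-0.0555 with the met32 sign turned) against a robust SD of 0.0786 over all ORFs. The arrays of a pair may share wild-type RNA, which the labels do not settle, so a likeness within a pair is not independent evidence.

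**Figure D2:**
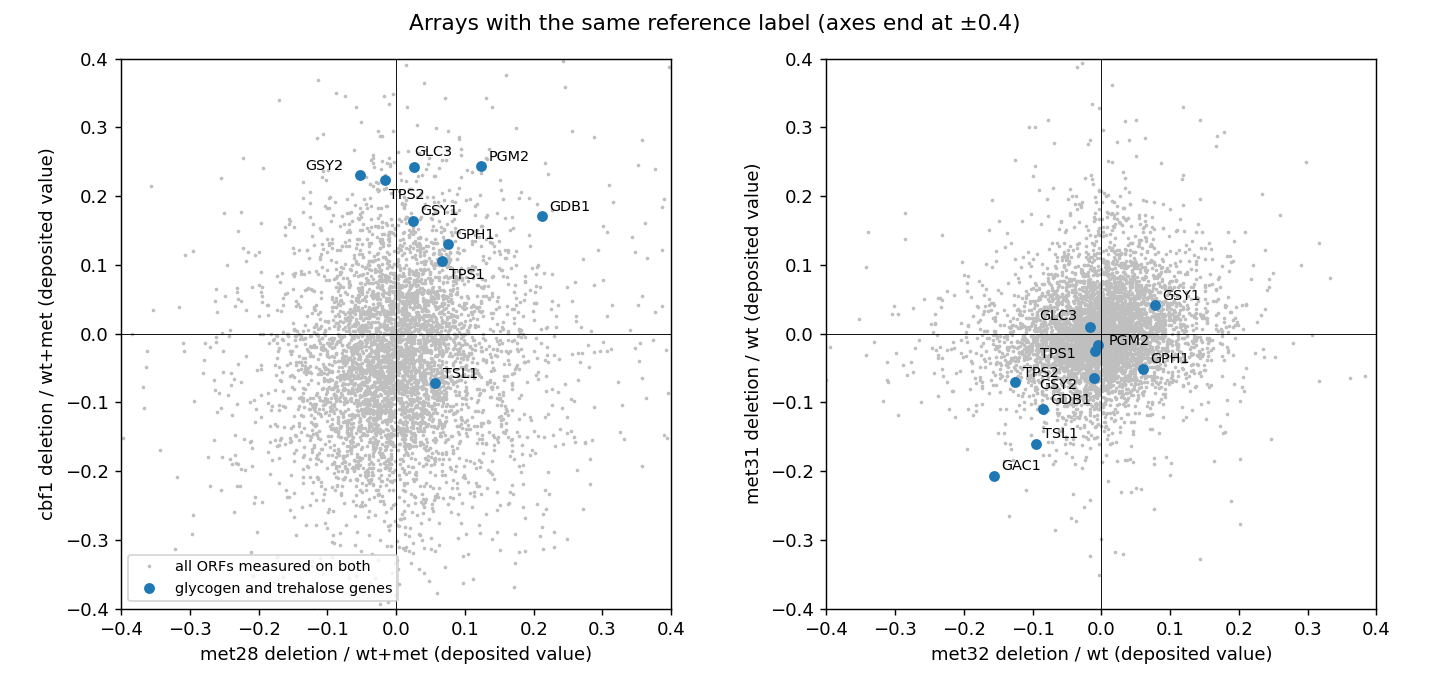
Each point is an ORF, with its deposited value on 2 arrays of the same reference label: cbf1 (vertical) against met28 on the left, met31 (vertical) against met32 on the right, and the 10 genes named where both values were measured. On the left 8 of 9 genes lie above 0 on the cbf1 axis, with GSY2 and TPS2 left of 0 on the met28 axis. On the right GAC1, TSL1, GDB1 and TPS2 are farthest below 0 on both axes, and GSY2, TPS1 and PGM2 are also below 0 on both.

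Across strains, most genes had their highest value on cbf1 and their lowest on met31. These arrays carry different reference labels, wt+met and wt, so deletion and reference cannot be told apart in this comparison. Of the 9 genes measured on all 4 arrays, 7 were highest on cbf1, where 19.5% of the 4661 such ORFs had their highest value. The other two, GDB1 and TSL1, were highest on met28, as were 32.8% of ORFs, and with the met32 sign turned TSL1 was highest on met32, at 0.095. The lowest value was on met31 for 6 of the 9, against 15.6% of ORFs, on met32 for TPS2 and GLC3 (18.7% of ORFs), and on met28 for GSY1 (22.8%). The count of 6 on met31 was the same with arrays centred on their medians (19.0% of ORFs) and also divided by their robust SDs (23.4%). With the met32 sign turned, 7 were lowest on met31, against 16.7% of ORFs, and GSY1 and GPH1 on met32. The count of 7 on cbf1 did not move when arrays were centred on their medians (29.7% of ORFs), also divided by their robust SDs (21.6%), when the met32 array was left out (23.7% of 4974 ORFs) or when its sign was turned (19.6%). Of these settings, centring alone could not lower the count, because cbf1 has the lowest array median (-0.034). Leaving out met32 could not change it, because GDB1 and TSL1 were highest on met28. The range over arrays was widest for GAC1, at 0.831 over 3 arrays, and narrowest for TPS1, at 0.131, with the met32 sign either way. In between, the order depended on that sign: as deposited the range was 0.349 for TPS2, 0.322 for GDB1, 0.295 for GSY2 and 0.140 for GSY1, and with the sign turned 0.295, 0.322, 0.295 and 0.242 for the same genes.

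The 5 genes of known symbol with the 4-array pattern nearest to the medians of the 10 were CKB1, a subunit gene of casein kinase II, HSP104, a disaggregase gene, OXP1, a 5-oxoprolinase gene, HBS1, a gene of ribosome rescue, and PAN2, a poly(A) nuclease subunit gene. Nearness was the Euclidean distance over the 4 arrays in units of each array's robust SD, and it was 0.473 for CKB1 and 0.614 for PAN2, against a median of 2.98 over 4110 genes. CKB1 was at 0.065, -0.035, -0.010 and 0.155 on met28, met31, met32 and cbf1, and HSP104 at 0.050, -0.052, -0.043 and 0.168. The 9 members measured on all 4 arrays lay farther from the medians than these 5 genes, from 0.874 (TPS1) to 3.25 (TSL1). GAC1, not measured on cbf1, has no distance.

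Paralogs of the members had other values. The array cannot be assumed to tell paralogs of similar sequence apart. GSY1 was above GSY2 on met28 (0.024 and -0.053) and met31 (0.041 and -0.065), and below it on cbf1 (0.164 and 0.230). On met32 GSY1 was at 0.078 and GSY2 at -0.011, and with the sign turned their order is the reverse, at -0.078 and 0.011. PGM2 was at 0.243 on cbf1 and 0.124 on met28, and PGM1, the minor phosphoglucomutase gene, at 0.018 and 0.058 on the same arrays. TSL1 was below TPS3, a second gene of a regulatory trehalose synthase subunit, on met28, met31 and cbf1, with TPS3 at 0.194, -0.005 and 0.063. On met32 TSL1 was at -0.095 and TPS3 at 0.012, and with the sign turned TSL1 is above, at 0.095 against -0.012. PIG1, a second gene for a regulatory subunit of Glc7, did not share the extremes of GAC1 and was at -0.111 on met28 and -0.025 on met31.

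Other genes of the pathway were examined next. In 5 lists holding 32 further genes of synthesis, breakdown, precursor supply and control, 29 were measured on cbf1. Of these, 37.9% were above 0, against 37.1% of all ORFs. The tails held 0 of them (2.49% of ORFs in the highest 2.5%, 2.51% in the lowest). Their median was -0.010, against -0.034 for all ORFs, so their share above 0 was close to that of the array. On met28, 18 of 29 were above 0, against 50.7% of all ORFs, with a median of 0.036. SGA1, a sporulation glucoamylase gene, was the only gene in a tail, at 0.288 in the highest 2.5% (2.5% of ORFs, and 2.54% in the lowest). On met31, 23 of 30 were below 0, against 51.7% of all ORFs, with a median of -0.030. The tails held 0 (2.51% of ORFs in the highest 2.5%, 2.55% in the lowest). On met32, 21 of 31 were above 0, against 48.8% of all ORFs, with a median of 0.021 (-0.021 with the sign turned), opposite in sign to the 10 genes. Both medians were small on that array, at 0.345 robust SDs for these genes and -0.230 for the 10 genes. GLC8, a regulator gene of Glc7, was at 0.410 there and PHO85, the kinase gene for glycogen synthase, at 0.160. Both were in the highest 2.5% (2.58% of ORFs), and both were listed at 0 on the other 3 arrays.

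By role, the precursor genes (UGP1, PGM1, HXK1, HXK2 and GLK1) were all above 0 on met28, against 50.7% of all ORFs, with a median of 0.058. On met31 all were below 0, against 51.7% of all ORFs, with a median of -0.031. No precursor gene was in a tail on either array (2.5% to 2.55% of ORFs in each tail), where their medians were 0.745 and -0.597 robust SDs. Their medians were 0.018 on cbf1 and -0.014 on met32 (0.014 with the sign turned). The 9 regulator genes had medians of 0.004 on met28, -0.058 on met31, 0.042 on met32 (-0.042 with the sign turned) and -0.062 on cbf1, where 4 of them were above the array median of -0.034. They include MSN2, the stress factor gene, at -0.116 on met28, -0.114 on met31, -0.030 on met32 (0.030 with the sign turned) and -0.133 on cbf1, outside the tails each time. NTH1, the neutral trehalase gene, at 0.205, PCL6, a cyclin gene for Pho85, also at 0.205, and HXK1, a hexokinase gene, at 0.157 were the highest of the 32 on cbf1. These 3 genes and MSN2 were named after their values were seen.

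**Figure D3:**
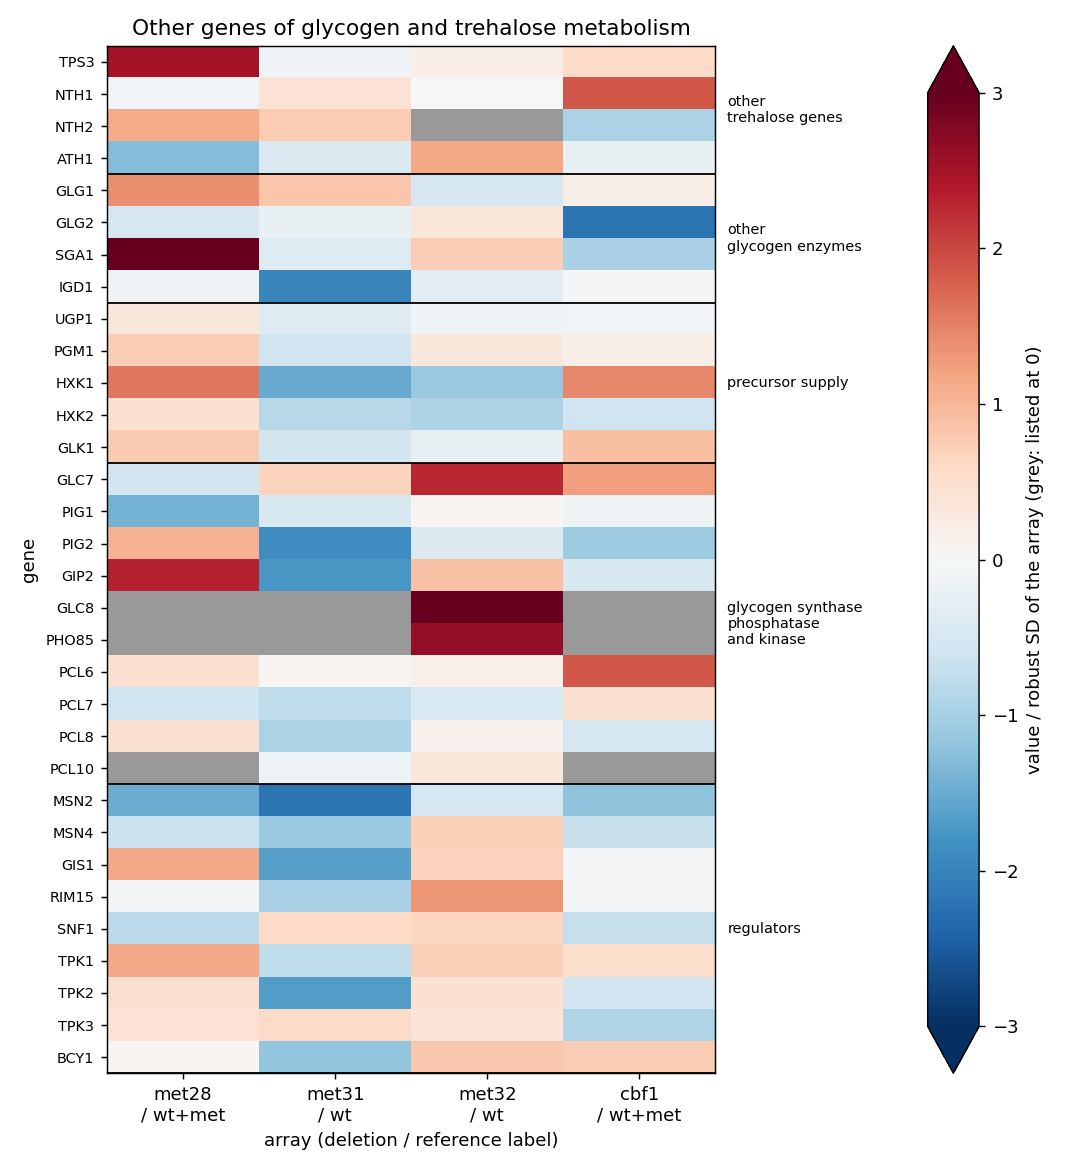
Values of the 32 other pathway genes (rows, grouped by role) on the 4 arrays (columns), each divided by the robust SD of its array and not centred, with colours ending at 3 robust SDs either way and grey for a value listed at 0. SGA1 on met28 (0.288) and GLC8 on met32 (0.410) lie beyond the colour range, and on the met31 array 23 of 30 measured genes are below 0.

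General stress genes outside the pathway were examined for the same pattern, because many genes of both groups are taken to share stress factors. That sharing was not tested here. On cbf1 the 10 genes had a median of 0.171 and the 29 stress genes a median of 0.035, against -0.034 for all ORFs, so the stress list also lay above the array, by 0.069. Above 0 were 16 of the 29, against 37.1% of all ORFs. The other 13 were below 0, down to -0.279, with 0 in the lowest 2.5% (2.51% of ORFs). Of the stress genes, 2 were in the highest 2.5% (2.49% of ORFs), TMA10 (0.433) and the small heat shock protein gene HSP26 (0.376). On met31, 24 of 28 were below 0, against 51.7% of all ORFs, with a median of -0.0395, and 4 were in the lowest 2.5% (2.55% of ORFs): TMA10 (-0.299), the repressor gene XBP1 (-0.189), the aldehyde dehydrogenase gene ALD3 (-0.158) and the catalase gene CTT1 (-0.128). On met28, 20 of 29 were above 0, against 50.7% of all ORFs, with a median of 0.026. TMA10 was in the highest 2.5% there (2.5% of ORFs), at 0.317. On met32, 17 of 28 were below 0, against 51.2% of all ORFs, and the median was -0.0195 (0.0195 with the sign turned). HSP78 (0.155), a mitochondrial chaperone gene, was in the highest 2.5% (2.58% of ORFs). SOL4 (-0.174), a phosphogluconolactonase gene, was in the lowest 2.5% (2.52% of ORFs). The stress list thus had medians of the same sign as the 10 genes on all 4 arrays, and so did the precursor genes. The median of the stress list was only 0.334 robust SDs from 0 on met28, -0.321 on met32 and 0.319 on cbf1, and -0.761 on met31. That of the precursor genes was only 0.164 on cbf1 and -0.230 on met32. The part of the stress list in the values of the 10 genes was not tested.

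**Figure D4:**
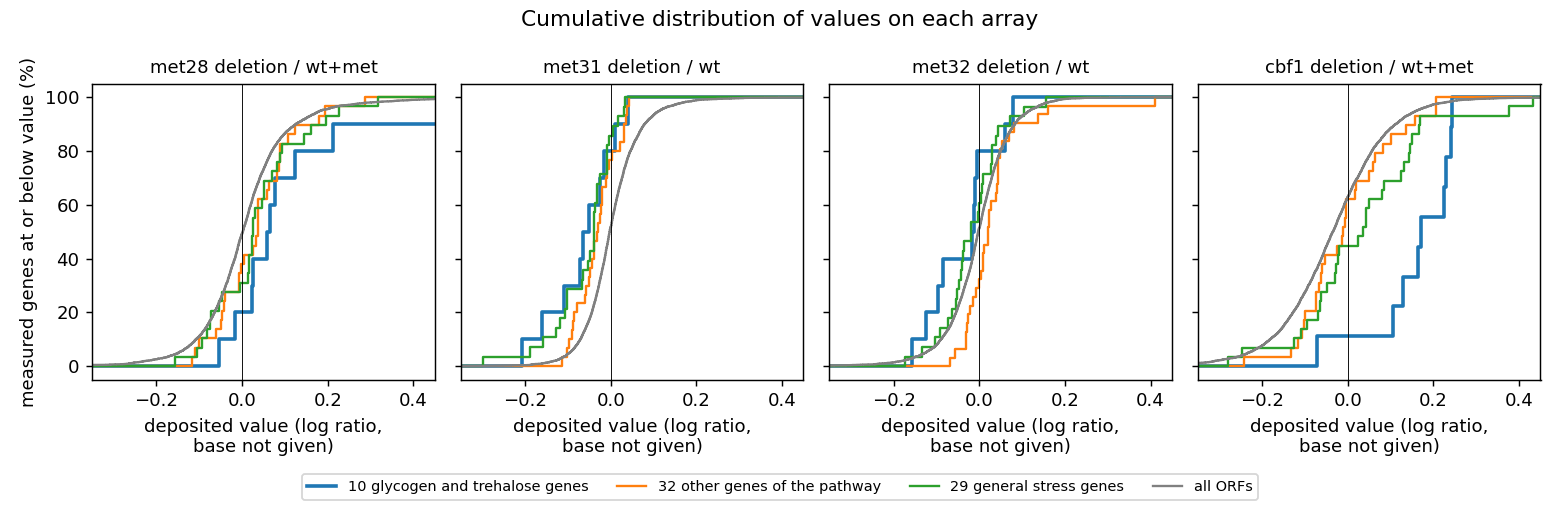
Percent of measured genes at or below each deposited value, for the 10 genes, the 32 other pathway genes, the 29 general stress genes and all ORFs, with a panel for each array and the outermost values off the axis. On cbf1 the median of the 10 genes (0.171) lies right of those of the stress genes (0.035), the other pathway genes (-0.010) and all ORFs (-0.034). The curves cross at the upper end, where the 10 genes reach 0.243 and the stress genes 0.433. On met31 the medians of all 3 lists lie left of that of all ORFs.

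The surroundings of TPS1 and GAC1 on the chromosome were inspected. TPS1 is on chromosome II, where 193 of 390 genes in the RefSeq table were at 0 on the met32 array, or 49.5% against 3.15% of all other ORFs in the value table. Of the 20 genes nearest to TPS1, 11 were at 0 on that array. TPS1 was at -0.010 on met32, whereas the 3 genes beyond it on the side of higher coordinates were at -0.557 (VMA2), 0.578 (ATG14) and -0.457 (OPY1). VMA2, a vacuolar ATPase subunit gene, is next to TPS1 and was between -0.023 and 0.053 on the other arrays. TSL1 was at 0.057 on met28, and ARG81, the gene next to it, at 0.325, in the highest 2.5%. No other gene next to a member was in a tail on any array. On met28, where GAC1 was at 0.624, the genes next to it were SYC1 at -0.173 and MPC54 listed at 0.

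**Figure D5:**
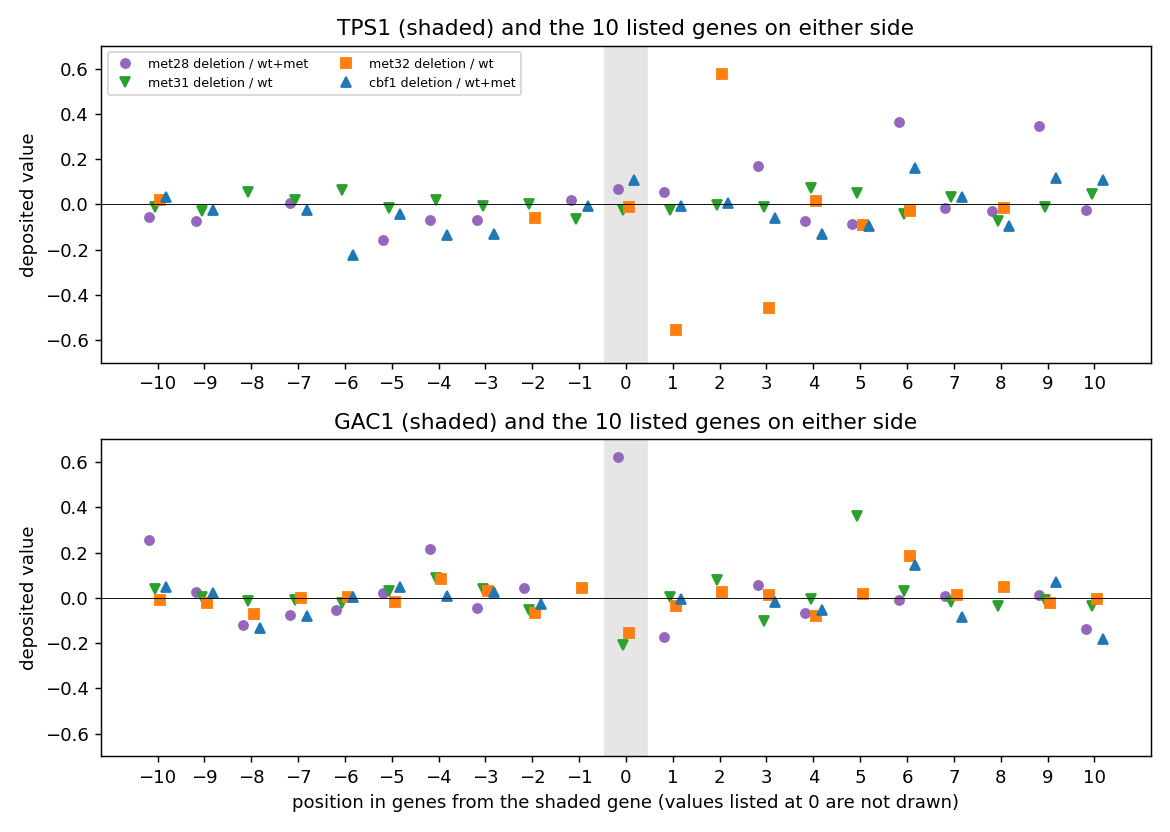
Deposited values on the 4 arrays for TPS1 (upper panel) and GAC1 (lower panel) at position 0 and for the 10 listed genes on either side, in gene order, with values listed at 0 left out. Next to TPS1 the met32 values (squares) reach -0.557 and 0.578 while TPS1 is at -0.010, and GAC1 at 0.624 on met28 (circle) is the highest value in its window.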

How the data were processed

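The table holds 1 signed value per ORF and strain, with at most 3 decimals. The deposited values are entered here as a score, because nothing in the labels or the file states the authors' log base, their centring, their background correction, their handling of dye swaps or how cultures were averaged. Per the labels' protocols, more than 1 culture was grown per strain and Cy3 or Cy5 was built into the cDNA, but each strain has 1 column. Exact zeros, listed 367 to 1018 times per array, were treated as not measured, because values next to 0 occurred on average only 19.4 to 51.0 times each. Depth is not defined for these arrays, and their number limits the precision. The median, the counts above and below 0 and the counts in the highest and lowest 2.5% of measured values were set beside the same over all measured ORFs, with no p-value. The robust SD is 1.4826 times the median absolute deviation. Gene names and gene order came from a RefSeq table of assembly R64, which lists 5774 of the 6260 ORFs. All 61 genes of the 6 lists were found in the value table. Sequences were not used here. Named genes are the 10 members, list members in a tail, the paralogs TPS3, PGM1 and PIG1, adjacent genes in a tail and the 5 genes nearest in pattern. Others (MSN2, NTH1, PCL6, the precursor genes, SYC1, MPC54, ATG14 and OPY1) were named after their values were seen. Members, lists and thresholds were chosen with earlier results of these data known. The code that places values in tails was checked on simulated arrays, which is no test of the genes. Python 3.11.15, pandas 2.3.3, numpy 2.4.6 and matplotlib 3.10.9 were used. Alternatives were centring, scaling, zeros as values, means, other tails, leaving out GAC1 or TPS1, and the met32 sign.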

Additional observations from a re-analysis of the deposited data

How the results depend on the processing

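The medians of the 10 genes kept their sign in 24 of 25 settings with another centring, scale, summary or set of genes, and the exception was met32 with the sign turned (0.014). Several of these outcomes were fixed in advance. Division by the robust SD cannot change a sign, and turning a sign always reverses it. Counting zeros as values could alter only the cbf1 median, and leaving out GAC1 could not alter that median. The mean on met28 was 0.114, against a median of 0.0615, and 0.057 was the median without GAC1. On met32 the mean was -0.0365. Counts in the tails followed the size of the tail. With 1% tails the cbf1 array had 0 members in the highest and met31 had 1 in the lowest. With 5% tails the met28 array had 2 in the highest and met32 had 1 in the lowest, and cbf1 had 6 in the highest. Over ORFs measured on all 4 arrays, which leaves out GAC1, the count in either tail was 0 on met28 and 1 on met31. With met32 left out, met31 was lowest for 8 of 9 members, against 23.9% of 4974 ORFs, and with its sign turned for 7, against 16.7% of 4661. The outcome with met32 left out was also fixed in advance. TPS2 and GLC3, lowest on met32, had their next lowest value on met31. The settings on which array was highest or lowest, and the ranges with the met32 sign turned, were chosen after seeing the data. No paired analysis was possible because each strain has 1 column. Replicates could not be left out, for the same reason.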
